A study of Mus musculus with 6 samples.

Results

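The 10 genes described here influence DNA methylation or chromatin, and mutations in several of them are recurrent in human clonal haematopoiesis and myeloid neoplasms. They are the DNA methyltransferases Dnmt1, Dnmt3a and Dnmt3b, the methylcytosine dioxygenases Tet1, Tet2 and Tet3, the chromatin regulators Asxl1 and Asxl2, and the isocitrate dehydrogenases Idh1 and Idh2. They were taken by symbol from the 48395 rows of the 6 count tables, and all 10 were among the 16739 genes that passed the filter on low counts.

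RNA was sequenced from LSK cells, a bone marrow fraction without lineage markers and positive for Sca-1 and c-Kit, which contains the stem cells and earliest progenitors of blood. There were 3 libraries labelled Hmga2 and 3 vector libraries, described as biological replicates. In both groups the donor marrow came from 5-fluorouracil-primed Mx1Cre; Jak2VF/+ mice, which carry an activating allele of the kinase Jak2 switched on by a Cre under an interferon-responsive promoter, and the strain is given as C57BL/6. Marrow was transduced with a lentivirus expressing Hmga2, an architectural chromatin factor with AT-hook domains, or with the vector alone, transplanted into lethally irradiated C57BL/6 recipients and collected 32 weeks later. The labels name a sort for LSK cells and none for transduced or donor-derived cells, so untransduced and host cells may be included, and no age or sex is given.

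DNA methylation sits mostly on cytosines that precede a guanine (CpG). Dnmt1 copies it to the new strand after replication, whereas Dnmt3a and Dnmt3b place it on unmethylated DNA. Tet enzymes oxidise methylcytosine with alpha-ketoglutarate, the product of Idh1 in the cytosol and Idh2 in mitochondria, as co-substrate, and the neomorphic product of mutant IDH enzymes inhibits them. Asxl proteins are partners of the histone H2A deubiquitinase Bap1. In mouse marrow, loss of Dnmt3a or Tet2 favours self-renewal of haematopoietic stem cells.

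The libraries held 24818011 to 35471806 counts each. The gene Hmga2 was present at 2.63, 6.63 and 5.92 CPM (read counts relative to TMM-scaled library size) in the libraries labelled Hmga2, against 5.96, 5.04 and 7.03 CPM in the vector libraries, so this gene does not bear out the label, and the sources used here do not say if transgene reads were counted. All directions below are therefore those of the libraries labelled Hmga2. All 12 LSK and stem cell markers were detected, and their summed level was 2045 to 2124 CPM in libraries labelled Hmga2, against 1611 to 1892 CPM in the vector libraries. Summed B and plasma cell markers ranged from 600.1 to 4258 CPM in libraries labelled Hmga2 and from 784 to 12940 CPM in vector, and granulocyte markers from 2898 to 4724 CPM and from 4248 to 9046 CPM in the same order. For erythroid markers the ranges were 519 to 1060 and 823 to 1206 CPM, for stroma and endothelium 96.6 to 120.1 and 79.2 to 98.2 CPM, for glial markers 111 to 144 and 119 to 376 CPM, and for T and NK cell markers 1.30 to 5.97 and 0.961 to 5.96 CPM. Taken as list medians of log2 CPM centred per gene, granulocyte markers were at -0.98, -0.41 and -0.84 in the libraries labelled Hmga2, against 1.17, 1.38 and 0.36 in vector. Erythroid markers were at -0.41, -0.51 and -0.31, against 0.27, 0.70 and 0.29 in vector, and stroma and endothelium at 0.48, 0.70 and 0.08, against -0.29, -0.31 and -0.54 in vector. The groups were thus apart for these 3 medians, lower in libraries labelled Hmga2 for granulocyte and erythroid markers and higher for stroma and endothelium. The summed levels of the same lists overlapped, and 3 of the 6 stroma and endothelium genes had a mean under 1 CPM. Summed macrophage markers ranged from 78.0 to 237 CPM in libraries labelled Hmga2 and from 83.7 to 206 CPM in vector. For megakaryocyte markers the ranges were 575 to 792 and 478 to 805 CPM in the same order. Summed Y-linked genes reached 192 and 127 CPM in Hmga2 replicates 1 and 3, against 5.27 CPM in Hmga2 replicate 2 and 5.44 to 21.5 CPM in vector. The part of these differences in the results below was not tested beyond the terms named there, and in such bulk samples fewer cells of a type and less RNA per cell cannot be told apart.

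None of the 10 genes passed a test of the difference between the groups. With edgeR's quasi-likelihood test 0 of 10 passed after Benjamini-Hochberg adjustment over all genes, with adjusted p from 0.855 to 0.965, beside 0% of all 16739 genes called. DESeq2 called 0 of the 10 as well, beside 0.425% of the genes it adjusted. At an unadjusted p under 0.05 there were 0 of the 10, beside 5.59% of all genes. The fold change was positive for 8 members and negative for Idh1 and Idh2, with a median of 0.14 on the log2 scale beside 0.00 for all genes, of which 50.4% were positive. Dnmt1 and Asxl1 were the members whose groups did not overlap, both higher in the libraries labelled Hmga2, that is 2 of 10 beside 5.28% of all genes. Members whose groups did not overlap in the other direction numbered 0, beside 5.88% of all genes, and for both directions together the share of all genes was 11.2%. With 10 members, these counts are a description only.

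**Figure D1:**
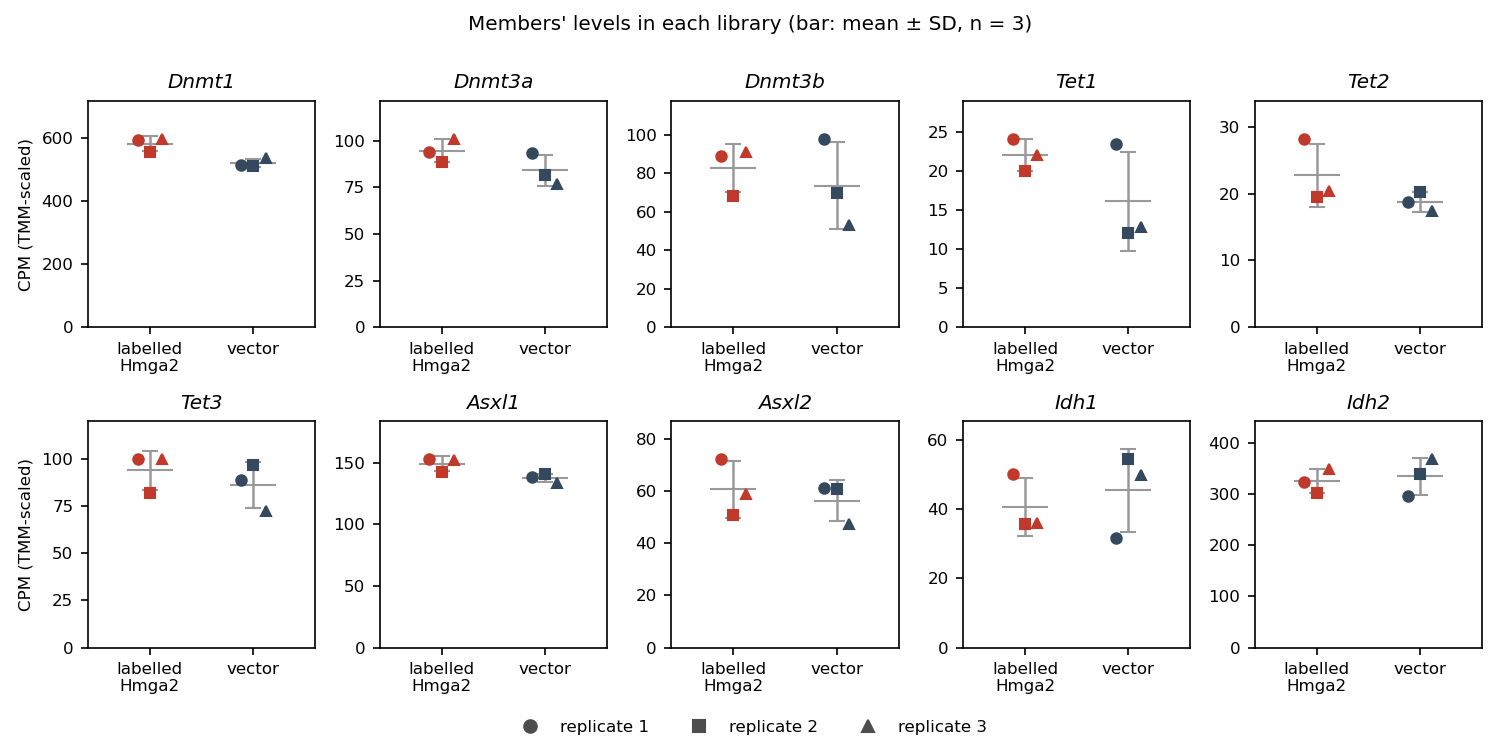
Each panel shows 1 member, with TMM-scaled CPM on a vertical axis from 0, libraries labelled Hmga2 in red on the left and vector libraries in grey-blue on the right. Symbols are replicates and bars are mean ± SD (n = 3). The groups are apart for Dnmt1 and Asxl1, while for Tet1 vector replicate 1 at 23.4 CPM sits with the libraries labelled Hmga2.

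The promoters of the 2 members whose groups did not overlap are shown with those of Dnmt3b, which varied widely, and Tet2, whose window was the richest in CpG. The 250 bases before each RefSeq start on GRCm38.p6 were read 5′ to 3′ on the strand of the gene, with every CG in capitals. That of Asxl1 stops 1 base short, at 249, where GENCODE begins the first exon. Dnmt1 has 3 listed starts, and the window shown, chosen with its letters known, is the middle one and free of annotated exon, at chr9:20952980-20953229 on the minus strand. Asxl1 is at chr2:153345580-153345828 and Dnmt3b at chr2:153649199-153649448, both on the plus strand, and Tet2 is at chr3:133544391-133544640 on the minus strand.
Dnmt1: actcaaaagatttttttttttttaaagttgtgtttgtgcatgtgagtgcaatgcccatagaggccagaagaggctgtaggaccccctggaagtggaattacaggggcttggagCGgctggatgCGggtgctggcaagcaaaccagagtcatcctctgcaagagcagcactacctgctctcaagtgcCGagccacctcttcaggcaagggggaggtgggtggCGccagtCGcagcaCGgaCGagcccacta
Asxl1: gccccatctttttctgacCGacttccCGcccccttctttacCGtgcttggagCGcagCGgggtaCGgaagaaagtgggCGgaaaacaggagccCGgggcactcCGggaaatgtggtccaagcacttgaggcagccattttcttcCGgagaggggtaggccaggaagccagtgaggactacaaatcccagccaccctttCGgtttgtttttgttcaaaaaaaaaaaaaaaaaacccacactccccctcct
Dnmt3b: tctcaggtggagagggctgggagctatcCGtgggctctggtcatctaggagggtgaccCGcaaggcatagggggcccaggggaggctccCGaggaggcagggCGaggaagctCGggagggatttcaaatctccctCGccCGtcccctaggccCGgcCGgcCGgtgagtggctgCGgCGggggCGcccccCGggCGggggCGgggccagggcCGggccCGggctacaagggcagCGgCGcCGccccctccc
Tet2: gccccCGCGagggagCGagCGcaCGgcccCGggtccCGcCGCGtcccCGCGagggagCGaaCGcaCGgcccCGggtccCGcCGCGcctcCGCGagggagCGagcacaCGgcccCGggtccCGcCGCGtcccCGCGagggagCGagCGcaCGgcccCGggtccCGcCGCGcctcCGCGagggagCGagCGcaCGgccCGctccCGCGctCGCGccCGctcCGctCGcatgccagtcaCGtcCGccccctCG

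The windows shown held 7 CG in Dnmt1, 11 in Asxl1, 21 in Dnmt3b and 51 in Tet2, where the median of 32851 mouse windows was 6. The other Dnmt1 windows held 26 and 2 CG, with longest runs of A and T of 7 and 5 bases. Over all 15 windows of the 10 members, which overlap in part for Dnmt3a, the number of CG ran from 2 to 51, and 13 of 15 held at least 10, a count reached by 37.8% of all windows. The longest run of A and T was 17 bases in the Dnmt1 window shown and 18 in the Asxl1 window. It was 4 in Dnmt3b and 2 in Tet2, with a median of 7 over all windows. The long run of Dnmt1 thus belongs to 1 of its 3 starts. The share of all windows with so long a run was not counted, and a link of such runs to expression was not tested. The motif GGGCGG, the GC box, was present on either strand in 13 of the 15 windows and in 32.7% of all windows. TATAAA, the TATA box, was present in 0 of the 15 and in 12.4% of all, and the E-box CACGTG in 1 of the 15 and in 6.02% of all. The E2F-type letters TTTCCCGC and TTTGGCGC were in 0 of the 15 each, and in 0.895% and 0.417% of all windows. Such matches describe the letters of these windows, not sites in use, and the counts per gene do not show which start was used. Some member windows hold annotated exon, up to 166 of 250 bases in the Dnmt1 window with 26 CG. The set of all windows was not limited to genes expressed here.

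Among the methyltransferases, Dnmt1 varied least. This maintenance enzyme (chromosome 9, positions 20907209 to 20959888 on GRCm38, the assembly of mm10) was at 594, 554 and 597 CPM in libraries labelled Hmga2, against 514, 511 and 536 CPM in the vector libraries. Each library labelled Hmga2 was above each vector library, with the lowest of one group close to the highest of the other. The means were 582 ± 24.1 and 520.1 ± 13.5 CPM (SD, n = 3 each, labelled Hmga2 first), and the log2 fold change was 0.16 ± 0.08 (standard error), with a 95% interval of -0.02 to 0.34. The difference did not pass in edgeR (adjusted p = 0.855). An exact two-sided permutation test gave p = 0.1, the smallest value that 3 libraries against 3 allow, which groups without overlap always give. Between 12790 and 21009 counts lay behind each value, so counting error was small beside the spread between libraries.

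Dnmt3a, a de novo methyltransferase (chromosome 12, positions 3806007 to 3914443), was at 93.9, 88.8 and 101 CPM in libraries labelled Hmga2, against 93.5, 81.6 and 77.0 CPM in vector. Vector replicate 1 lay inside the range of the libraries labelled Hmga2, and the other vector libraries lay below it. The log2 fold change was 0.17 ± 0.10 (SE here and below, edgeR adjusted p = 0.855), and its 95% interval, read as a fold, ran from 0.961 to 1.32. Changes of Dnmt3a beyond 1.32-fold upward thus fell outside the interval.

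Dnmt3b, the other de novo enzyme (chromosome 2, positions 153649450 to 153687730), was at 89.0, 68.4 and 91.2 CPM in libraries labelled Hmga2, against 98.1, 69.6 and 53.4 CPM in vector. The highest and the lowest library were both vector libraries. The SD over vector was 22.6 CPM, larger than the difference between the means of 82.9 and 73.7 CPM, and the log2 fold change was 0.17 ± 0.22 (SE, edgeR adjusted p = 0.93). It was 0.43 without vector replicate 1 and -0.01 when vector replicate 3 was left out, with adjusted p of 0.443 and 0.997. Of the distinct 50-base stretches in Dnmt3b transcripts, 9.81% also occur in transcripts of its duplicate Dnmt3c, while no more than 2% of those of any other member are shared with other genes. The row Dnmt3c-ps, a synonym that RefSeq gives for the same locus as Dnmt3c, was at 0.419 to 1.07 CPM, so few reads had been placed there. Dnmt3l, the catalytically inactive partner of the de novo enzymes, had at most 4 counts in any library and was not tested.

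Tet1 had the largest fold change of the members and rested on which vector library was considered. This dioxygenase gene (chromosome 10, positions 62804570 to 62908996) was at 24.1, 19.9 and 22.1 CPM in libraries labelled Hmga2, against 23.4, 12.03 and 12.9 CPM in vector. Vector replicate 1 stood with the libraries labelled Hmga2, and vector replicates 2 and 3 stood below all of them. With every library the log2 fold change was 0.45 ± 0.26 (SE, 95% interval -0.17 to 1.07, edgeR adjusted p = 0.855). It was 0.82 without vector replicate 1 (adjusted p = 0.424), 0.28 when vector replicate 2 was left out and 0.32 without vector replicate 3. The median of the LSK and stem cell markers, in log2 CPM centred per gene, was 0.09, 0.24 and 0.07 in the libraries labelled Hmga2 and 0.28, -0.55 and -0.22 in vector replicates 1, 2 and 3. The sign was thus the same as that of Tet1 in each library, and the part of these markers in the Tet1 values was not tested.

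Tet2, the family member most often mutated in human clonal haematopoiesis (chromosome 3, positions 133463679 to 133545139), was at 28.2, 19.5 and 20.4 CPM in libraries labelled Hmga2, against 18.7, 20.3 and 17.3 CPM in vector. Hmga2 replicate 1 lay well above the vector libraries, Hmga2 replicate 3 was level with the highest of them and Hmga2 replicate 2 lay among them. Its log2 fold change was 0.28 ± 0.17 (SE, 95% interval -0.12 to 0.68, edgeR adjusted p = 0.855), and the value was 0.09 without Hmga2 replicate 1. With the summed Y-linked genes, which were highest in that library, as a covariate it was 0.08.

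Tet3 (chromosome 6, positions 83362373 to 83459084) was at 100.1, 82.1 and 100.2 CPM in libraries labelled Hmga2, against 88.9, 96.8 and 72.8 CPM in vector. The groups overlapped, with Hmga2 replicate 2 below 2 of the vector libraries. The fold change on the log2 scale, 0.13 ± 0.13 (SE, edgeR adjusted p = 0.897), became -0.05 with Y-linked genes as a covariate and -0.01 with the immunoglobulin share of the library as one. Leaving out 1 library gave 0.03 without vector replicate 3, 0.08 without Hmga2 replicate 1 or 3, 0.15 without vector replicate 1, 0.21 without Hmga2 replicate 2 and, at most, 0.22 without vector replicate 2. That share was 0.0886%, 0.642% and 0.0631% in the libraries labelled Hmga2 and 1.85%, 0.0801% and 1.52% in vector.

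Asxl1, a scaffold of the Bap1 deubiquitinase complex (chromosome 2, positions 153345829 to 153404007), was at 153, 142 and 152 CPM in libraries labelled Hmga2, against 139, 140.5 and 134 CPM in vector. As for Dnmt1, the groups did not overlap, and both genes kept apart when TMM was replaced by RLE or upper-quartile factors or by total counts. The means were 149 ± 5.95 and 138 ± 3.56 CPM (SD, n = 3 each, labelled Hmga2 first). The log2 fold change was 0.12 ± 0.07 (SE, 95% interval -0.04 to 0.28, edgeR adjusted p = 0.855). An exact two-sided permutation test gave p = 0.1, the value that groups without overlap always give with 3 libraries against 3. Exons of Asxl1 share 197 bases with an opposite-strand gene, 2500004C02Rik, and the sources used here do not say whether counting used the strand. That gene had at most 295 counts in a library, where Asxl1 had 3190 to 5409.

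Asxl2, the paralogue with a role in mouse haematopoietic stem cells (chromosome 12, positions 3426857 to 3506852), was at 72.5, 50.9 and 59.1 CPM in libraries labelled Hmga2, against 61.1, 60.9 and 47.4 CPM in vector. The highest value was again that of Hmga2 replicate 1. The log2 fold change was 0.11 ± 0.16 (SE, edgeR adjusted p = 0.936), against -0.04 when Hmga2 replicate 1 was left out and -0.11 with Y-linked genes as a covariate. Asxl2 shares 155 exonic bases with the opposite-strand gene 1110002L01Rik, which had at most 228 counts. Asxl3, the third paralogue, had at most 6 counts in any library and was not tested.

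Idh1, the cytosolic enzyme (chromosome 1, positions 65158616 to 65186500), was at 50.1, 35.6 and 35.8 CPM in libraries labelled Hmga2, against 31.7, 54.4 and 49.8 CPM in vector. In both groups 1 library stood apart from the other 2, Hmga2 replicate 1 on the high side and vector replicate 1 on the low side. The log2 fold change was -0.16 ± 0.23 (SE, edgeR adjusted p = 0.933). It was -0.36 without vector replicate 1 and -0.0083 when vector replicate 2 was left out.

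Idh2, the mitochondrial enzyme (chromosome 7, positions 80094846 to 80115392), was at 324, 302 and 349 CPM in libraries labelled Hmga2, against 297, 338 and 369 CPM in vector. The vector libraries held both the lowest and the highest value. Its log2 fold change was -0.04 ± 0.10 (SE, 95% interval -0.29 to 0.21, edgeR adjusted p = 0.965). As a fold the interval ran from 0.819 to 1.15.

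**Figure D2:**
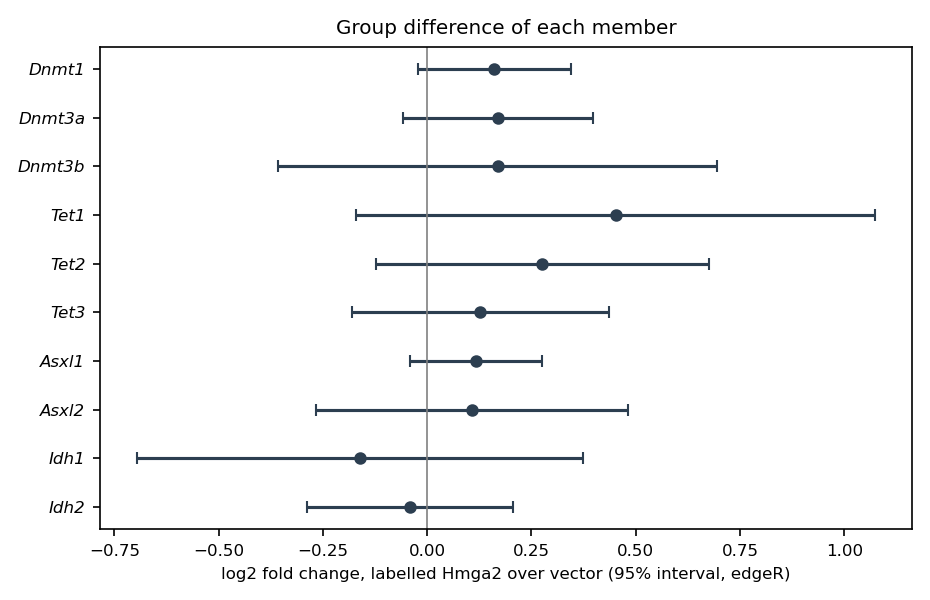
Points are log2 fold changes of the libraries labelled Hmga2 over vector for the 10 members, and lines are 95% intervals from the edgeR fit (n = 3 per group). Every interval includes 0, and Tet1 has the widest, from -0.17 to 1.07.

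The balance within each family was compared as a log2 ratio of CPM inside a library, which depends little on the scaling of libraries. The CPM of Dnmt3a over that of Dnmt3b was 1.06, 1.30 and 1.11 in the libraries labelled Hmga2, against 0.953, 1.17 and 1.44 in vector. For Tet2 over Tet1 the ratio was 1.17, 0.980 and 0.926 in the libraries labelled Hmga2, against 0.799, 1.69 and 1.35 in vector, so the spread lay between vector libraries. Idh1 over Idh2 stood at 0.155, 0.118 and 0.103 in the libraries labelled Hmga2, against 0.107, 0.161 and 0.135 in vector. The ratio of Asxl1 to Asxl2 ranged from 2.11 to 2.82 over the 6 libraries, and that of Tet2 to Tet3 from 0.204 to 0.282. Of 6 such ratios compared between the groups, counting also Dnmt3a over Dnmt1, the largest difference was that of Tet2 minus Tet1, -0.26 on the log2 scale, with p = 0.6 in an exact two-sided permutation test. It was -0.56 without vector replicate 1 and -0.02 when vector replicate 2 was left out, where the difference of Tet2 minus Tet3, at 0.10, was larger in size. All 6 had an adjusted p of 1 over the 6 comparisons, where 3 libraries against 3 cannot give a raw exact p below 0.1.

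Levels were compared between genes per kilobase of annotated exon, in CPM per kb over the 6 libraries. Idh2 was highest at 127.5 ± 10.7 and Dnmt1 next at 74.7 ± 5.14 (SD, n = 6 each), and their ranges did not overlap each other or those of the other 8. Asxl1 (19.3 ± 1.04), Idh1 (15.5 ± 3.46) and Dnmt3b (15.3 ± 3.35) came next, each overlapping its neighbour in this order. Tet3 (5.40 ± 0.662) and Dnmt3a (5.36 ± 0.528) overlapped each other, and Asxl2 was next at 3.68 ± 0.552, with a highest library of 4.55 that overlapped Tet3, whose lowest was 4.36, but not Dnmt3a, whose lowest was 4.63. Tet1 (1.23 ± 0.345) and Tet2 (1.23 ± 0.227) were the lowest pair. Per kilobase of the longest coding sequence, Idh2 and Dnmt1 remained first and second and the 2 Tet genes last, whereas the mean of Dnmt3a, 32.8 ± 3.23, was then close to 31.6 ± 1.71 for Asxl1 and 30.3 ± 6.63 for Dnmt3b, and the ranges of these 3 genes overlapped. The place of Dnmt3a thus depends on the length used, since 16642 bases of exon but 2724 of coding sequence are annotated for it.

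**Figure D3:**
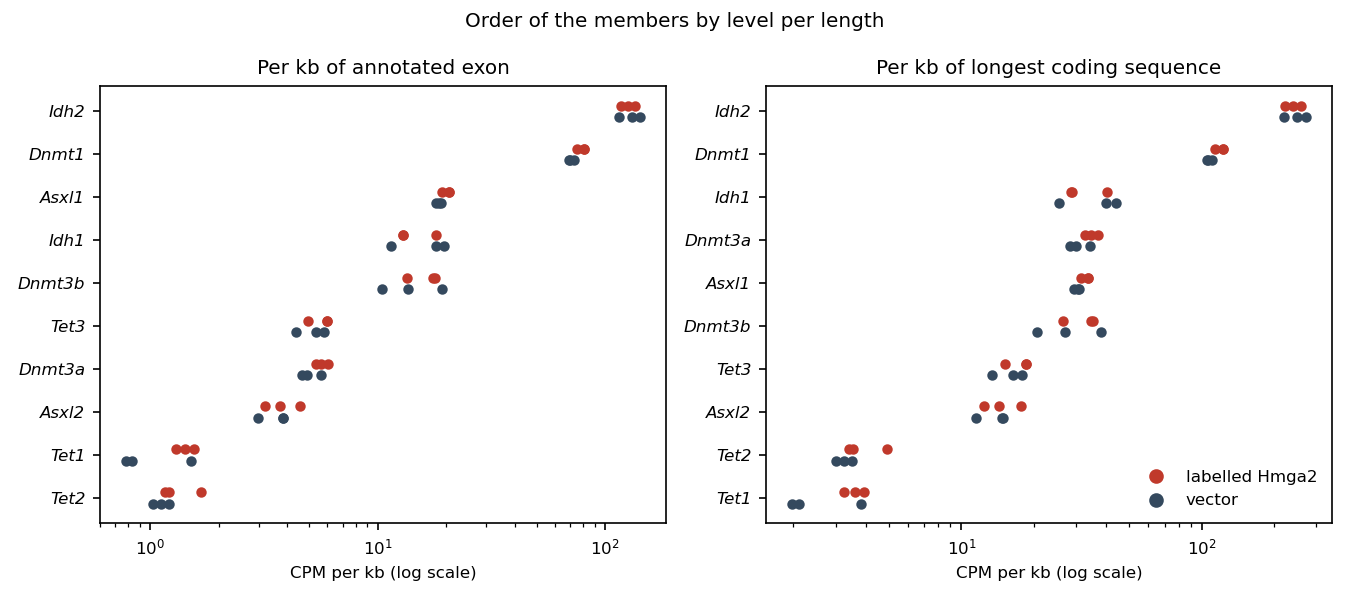
The horizontal axes give CPM per kb on a log scale, by annotated exon length on the left and by longest coding sequence on the right. Each point is a library, with those labelled Hmga2 drawn above vector. Idh2 and Dnmt1 lead and Tet1 and Tet2 are lowest by both lengths, while Dnmt3a changes place.

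The members did not vary as one group. In centred log2 CPM the median of the 10 was 0.19, -0.10 and 0.10 in the libraries labelled Hmga2 and -0.03, -0.02 and -0.22 in vector. Hmga2 replicate 2 therefore lay below vector replicates 1 and 2. The SD of log2 CPM over the 6 libraries ran from 0.08 for Asxl1 and 0.10 for Dnmt1 to 0.33 for Idh1 and Dnmt3b and 0.44 for Tet1. Vector replicate 3 was the lowest library for 6 members, and Idh1 and Idh2 were not among them. Of the 45 pairs of members, Dnmt1 and Asxl1 were the most alike, with a root mean square difference of 0.05 between their centred log2 values over the 6 libraries. They were also the members with the smallest SD, and this measure is small between any genes that vary little. S phase and mitosis genes, whose expression accompanies that of Dnmt1 in cycling cells, had medians of 0.04, -0.04 and -0.02 in the libraries labelled Hmga2 and -0.07, -0.02 and 0.08 in vector, and with a term for this list the log2 fold change of Dnmt1 was 0.16. Of these 20 genes 8 had a positive and 12 a negative fold change, with a median of -0.01 and 0 called in edgeR, where 1 had an unadjusted p under 0.05, again beside 5.59% of all genes. The proliferation gene Mki67 was at 670.4, 579 and 574 CPM in libraries labelled Hmga2, against 544, 532 and 509 CPM in vector. The ribonucleotide reductase gene Rrm2 was at 178, 161 and 175 CPM, against 184.5, 201 and 205 CPM in vector. These were the 2 of the 20 genes with separate groups, in opposite directions, beside 11.2% of all genes in either direction.

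**Figure D4:**
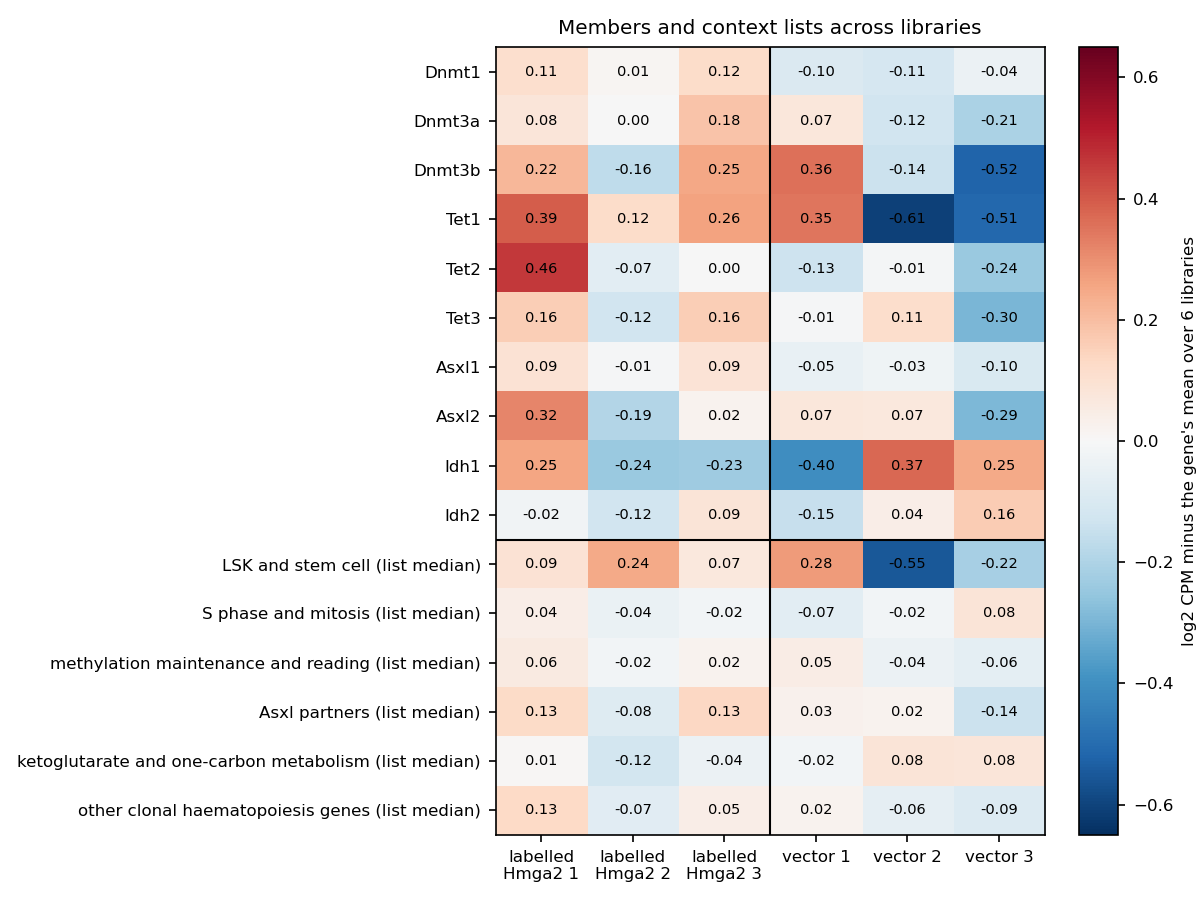
Colours and numbers give log2 CPM minus the mean over 6 libraries, for the 10 members in the upper block and the medians of 6 gene lists in the lower. Columns are libraries, with those labelled Hmga2 left of the line. Tet1 falls to -0.61 and -0.51 in vector replicates 2 and 3, and the LSK and stem cell list to -0.55 and -0.22 in the same libraries.

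By the same measure, among 9229 other named genes with a mean of at least 10 CPM, those most like Dnmt1 over the 6 libraries were Lasp1, Stat3 and Cyfip1, with differences of 0.016, 0.018 and 0.021. For Asxl1 they were Smarcc2, Ifnar1 and Inip, at 0.014, 0.021 and 0.023. Kmt2d, Frs2 and Srrm2 were the closest to Tet3, at 0.031, 0.033 and 0.038, and Pdcl3, Ppp5c and Aars2 the closest to Idh2, at 0.019, 0.029 and 0.031. With 6 libraries and so many genes, such likeness is a description of these libraries.

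Of the genes that maintain or read methylation, 16 of 18 listed were tested, 8 with a positive and 8 with a negative log2 fold change, and the median was 0.00, as over all genes. edgeR called 0 of them over all genes (smallest adjusted p = 0.855), and 3 of the 16 had an unadjusted p under 0.05, beside 5.59% of all genes. Uhrf2, a relative of the hemimethyl-CpG reader Uhrf1, was at 111, 99.3 and 96.4 CPM in libraries labelled Hmga2, against 84.6, 87.2 and 93.5 CPM in vector. Mbd2, a methyl-CpG reader, went the other way, at 93.8, 88.3 and 91.1 CPM against 99.2, 108.5 and 99.8 CPM in vector. The groups were apart for Uhrf2 and Mbd2, as for 11.2% of all genes in either direction, while the repair glycosylase gene Mbd4 had a log2 fold change of 0.22 with overlapping groups.

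Genes for the removal of oxidised cytosine and for Tet partners gave 9 positive and 7 negative values among 16 of 20 tested, with a median of 0.00. Ogt, the O-GlcNAc transferase that binds Tet proteins, was at 339.6, 264 and 271 CPM in libraries labelled Hmga2, against 252, 244 and 214 CPM in vector. Cxxc5, a CXXC zinc finger gene linked to Tet2, was at 73.3, 73.2 and 73.5 CPM, against 69.6, 54.2 and 58.2 CPM in vector. Both had groups that did not overlap and log2 fold changes of 0.30 and 0.27, and neither passed (adjusted p = 0.855 each, edgeR). Neil3, a DNA glycosylase gene, also had separate groups at a log2 fold change of 0.12, and the stress gene Gadd45b was at -0.41 with overlap. Separate groups were thus seen for 3 of the 16, all higher, beside 5.28% of all genes. At an unadjusted p under 0.05 in edgeR there were 2 of the 16, beside 5.59% of all genes. After adjustment edgeR called 0 of the 16, beside 0% of all genes. Among 7 tested partners of Asxl proteins 6 were positive, beside 50.4% of all genes, with a median of 0.11. edgeR called 0 of the 7, beside 0% of all genes. The forkhead gene Foxk1, Mbd5, the histone demethylase gene Kdm1b and the host cell factor gene Hcfc1 had the smallest p-values there. Their log2 fold changes were 0.20, 0.21, 0.18 and 0.11. The groups overlapped for all 7, where 11.2% of all genes had separate groups in either direction. With 7 genes, these counts are a description only.

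Genes of alpha-ketoglutarate and one-carbon metabolism, which supply the substrates of Tet and Dnmt enzymes, were mostly on the negative side, 19 of 27 tested, with a median of -0.12 beside 0.00 for all genes. Separate groups were seen for 5 of the 27, all lower in the libraries labelled Hmga2, beside 5.88% of all genes, and edgeR called 0 over all genes (smallest adjusted p = 0.855). Mthfd2, a mitochondrial folate enzyme, was at 43.3, 32.9 and 45.0 CPM in libraries labelled Hmga2, against 57.2, 58.4 and 60.8 CPM in vector, a log2 fold change of -0.54 ± 0.13 (SE). Mthfd1, its cytosolic relative, was at 239, 188 and 213 CPM, against 253, 297 and 255.5 CPM in vector. The citrate synthase gene Cs, upstream of isocitrate in the mitochondrial cycle, had a log2 fold change of -0.20, again without overlap. The fold changes of Idh1 and Idh2 were also negative, but their groups overlapped. That of Idh2 changed sign when Hmga2 replicate 2 or vector replicate 3 was left out.

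Of 41 other genes mutated in clonal haematopoiesis or myeloid disease, all tested, 28 were positive and 13 negative with a median of 0.09, and 0 were called over all genes in edgeR (smallest adjusted p = 0.855). The transcription factor gene Runx1 was at 116, 113 and 119.5 CPM in libraries labelled Hmga2, against 94.8, 105.5 and 90.3 CPM in vector. Crebbp, a histone acetyltransferase gene, and Rad21, a cohesin subunit gene, had log2 fold changes of 0.29 and 0.19, also with separate groups, while those of Jak2, at 0.27, overlapped. Separate groups were seen for 3 of the 41, all higher, beside 5.28% of all genes.

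**Figure D5:**
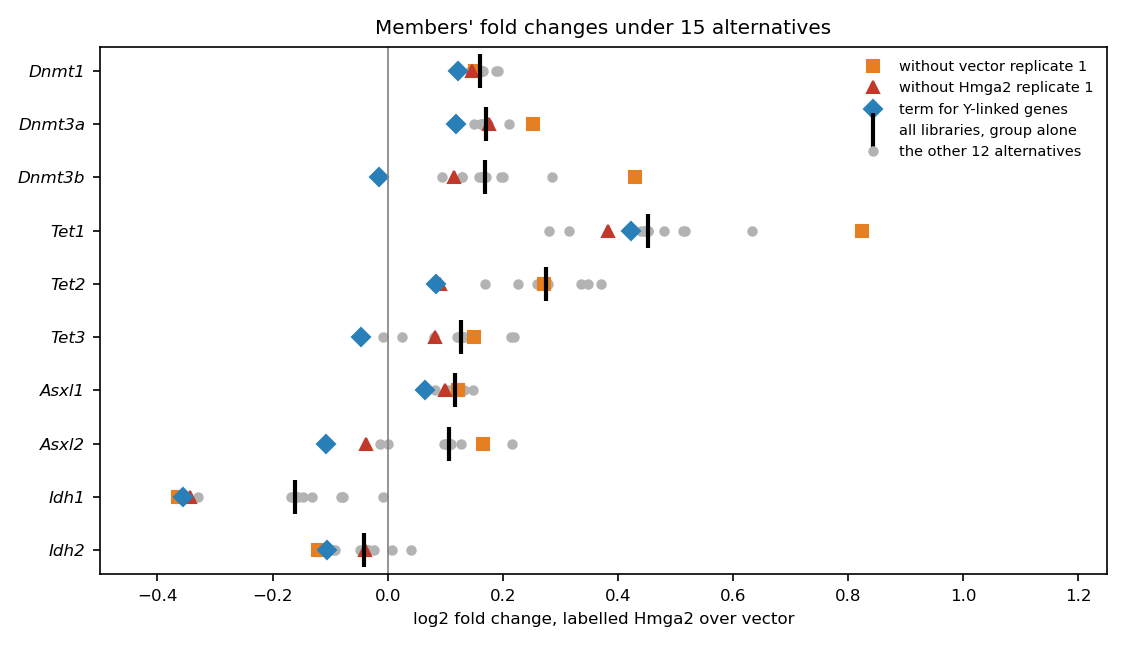
The horizontal axis gives each member's log2 fold change, labelled Hmga2 over vector, as reported (black bar) and under 15 alternatives (symbols). Dnmt1 stays between 0.12 and 0.19 and Asxl1 between 0.06 and 0.15, whereas Tet1 runs from 0.28 to 0.82 and Asxl2 from -0.11 to 0.22.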

How the data were processed

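The values deposited by the authors were estimated counts, 1 table per library with a row for each gene symbol, made without normalization. That unit was read from the values, 67.3% to 70.1% of those above 0 being whole within 1e-06. Partek 3.0, Bowtie2 and mm10 are named, per the submitters' processing notes, while counter, annotation and strand setting were not given. Such estimates divide reads between similar genes by a model.

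Counts were rounded, filtered with filterByExpr, TMM-scaled and tested by group with the quasi-likelihood F test of edgeR 4.0.16 (R 4.3.3), with Benjamini-Hochberg adjustment over all genes at 0.05. A positive fold change means higher in the libraries labelled Hmga2. Standard errors derive from the F statistic. Centred values are log2 CPM (prior count 2) minus the mean of a gene over the 6 libraries. DESeq2 1.42.0 served as an alternative, and both tools were tested on simulated data. Positions and lengths came from GENCODE M21 and promoters from RefSeq. A count of 3 is 0.0846 to 0.121 CPM at these depths, for counting error only. Replicates differed beyond sampling noise, with a chi-square of 24.8 to 57.0 per degree of freedom. The edgeR p-values set the group difference against the spread between libraries, which is estimated partly across genes.

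The members and lists were chosen with earlier results of these data known. Besides the members, the rule named up to 4 genes of smallest p per list and the 3 genes most like the most abundant member of each family; some genes that this rule takes are left out here. Alternatives comprised the replicate block, omission of each library, other size factors, no filter, DESeq2, omission of immunoglobulin genes, and covariates for immunoglobulin share, Y-linked and S phase genes. Other scalings of the overlap count were added after seeing the data. Replicate numbers name no shared animal or batch, so samples were not paired.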

Additional observations from a re-analysis of the deposited data

How the results depend on the processing

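The count of members called was 0 under all 15 alternatives, with a smallest adjusted p of 0.424 (Tet1 without vector replicate 1). The count over all genes was 0 as reported, 71 with DESeq2, 1 without the filter on low counts (Mt1) and 1 with Y-linked genes as a covariate (Ighv1-78), the last 2 genes being named after their values were seen; the cause was not tested. Of 150 member fold changes under alternatives, 140 kept their direction. With Y-linked genes as a covariate, Dnmt3b was -0.015, Tet3 -0.047 and Asxl2 -0.11, and with the immunoglobulin share as one Tet3 was -0.0077 and Asxl2 -0.013. Leaving out 1 library at a time, Dnmt3b ranged from -0.014 to 0.43, Asxl2 from -0.038 to 0.22 and Idh2 from -0.12 to 0.040. The within-family difference ranged from -0.18 to 0.12 for Dnmt3a minus Dnmt3b, from -0.069 to 0.10 for Dnmt3a minus Dnmt1, from -0.56 to -0.025 for Tet2 minus Tet1, from 0.0086 to 0.24 for Tet2 minus Tet3, from -0.071 to 0.13 for Asxl1 minus Asxl2 and from -0.27 to 0.034 for Idh1 minus Idh2; other prior counts reversed none of the 6. Members whose groups did not overlap numbered 2 under every scaling. With the replicate number as a block, 719 genes had an unadjusted p under 0.05, against 935 without it, Tet1 was at 0.52 (adjusted p = 0.964), and no call changed. Same-numbered libraries had correlations of -0.21, -0.50 and -0.26 between their deviations from group means, so the numbers gave no sign of pairing. Hmga2 replicate 2 had correlations of 0.255 and 0.34 with vector replicates 1 and 3. Those of Hmga2 replicates 1 and 3 were 0.27 and 0.28 with vector replicate 2, and -0.11 and -0.08 with vector replicates 3 and 1. Hmga2 replicate 2 and vector replicates 1 and 3 were also higher in immunoglobulin share and lower in Y-linked genes than the other libraries. The covariates for these are thus not separate checks. With 3 libraries per group, differences inside the intervals given could not be shown.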
